A study of Neurospora crassa with 16 samples.

Results

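Transcript levels of the filamentous fungus Neurospora crassa were compared between wild type (WT) cultures and cultures of a △stk-12 strain after 3 days on crystalline cellulose. The comparison took, by genotype and time in the labels, the 2 WT and the 2 mutant libraries of day 3, which are 4 of the 16 libraries of a time course that also covered 12 h, day 1 and day 5. Both strains had been started from conidia in Vogel's salts with 2% (w/v) Avicel, a purified crystalline cellulose and the carbon source, and were kept at 25 °C under constant light until mycelia were filtered off for RNA. No other allele, strain background or mating type is named in the labels, and no label states whether a replicate was a culture of its own. The p-values thus reflect the spread among these libraries alone, and that spread may be technical. The 4 libraries held 17790889 to 20993981 reads assigned to genes, and 8983 of 9730 genes passed a filter on low counts and were tested.

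stk-12 encodes a serine/threonine protein kinase. N. crassa feeds on plant cell walls by secreting cellulases, hemicellulases and copper-containing lytic polysaccharide monooxygenases, whose genes are switched on by the transcription factors CLR-1 and CLR-2 when cellodextrins are taken up in place of glucose. Growth under such conditions also draws on metal uptake, on nitrogen and amino acid supply and on the secretory pathway, and older or air-exposed mycelium turns to making conidia, the asexual spores.

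The gene named as deleted was lower in the mutant but was still read. stk-12 stood at 100 and 105 CPM (read counts scaled to library size, with TMM factors between libraries) in the WT libraries and at 37.7 and 33.9 CPM in the mutant libraries, a log2 fold change of -1.52 ± 0.0699 (SE; edgeR quasi-likelihood test, adjusted p = 1.41e-11). Both mutant libraries lay below both WT libraries. A count per gene cannot place the remaining reads within it. Transcripts of the mating type genes differed too. matA-1, matA-2 and matA-3, the mating type A genes, had 0 reads in both mutant libraries, and against a floor of 3 reads per library they were at least 1221, 76.3 and 232-fold lower. ccg-4, which encodes the pheromone made by mating type A, held 1101888 reads in the WT libraries together and 1 in the mutant libraries (994544-fold, 95% exact counting interval 178501 to 39282400). The corresponding gene of mating type a, mfa-1, read 14.6 and 17.8 CPM in WT against 4432 and 5956 CPM in the mutant. Every difference given here is therefore also one between strains of unlike mating type transcripts, and the kinase and the mating type cannot be told apart.

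The strains differed in most of the transcriptome at day 3. In edgeR's test, 5342 of 8983 genes passed an adjusted p of 0.05 (59.5%), 2645 of them higher in the mutant (29.4%) and 2697 lower (30.0%). At least 2-fold differences were fewer, with 593 genes higher and 886 lower, and at least 8-fold differences numbered 69 and 178. The mutant and WT libraries did not overlap for any of the genes called. Lack of overlap, where given for single genes, thus comes with every call and adds nothing to it. Its share over all genes tested is not given. Replicates ran close, with Spearman's rho of 0.998 across genes within each strain against 0.925 between a WT and a mutant library. Scaling by library totals alone, without TMM, moved the median of all genes from -0.02 to -0.25 (a shift of -0.23) and the split to 1648 higher and 4249 lower, so small differences depend on the scaling and directions below are relative to TMM.

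**Figure D1:**
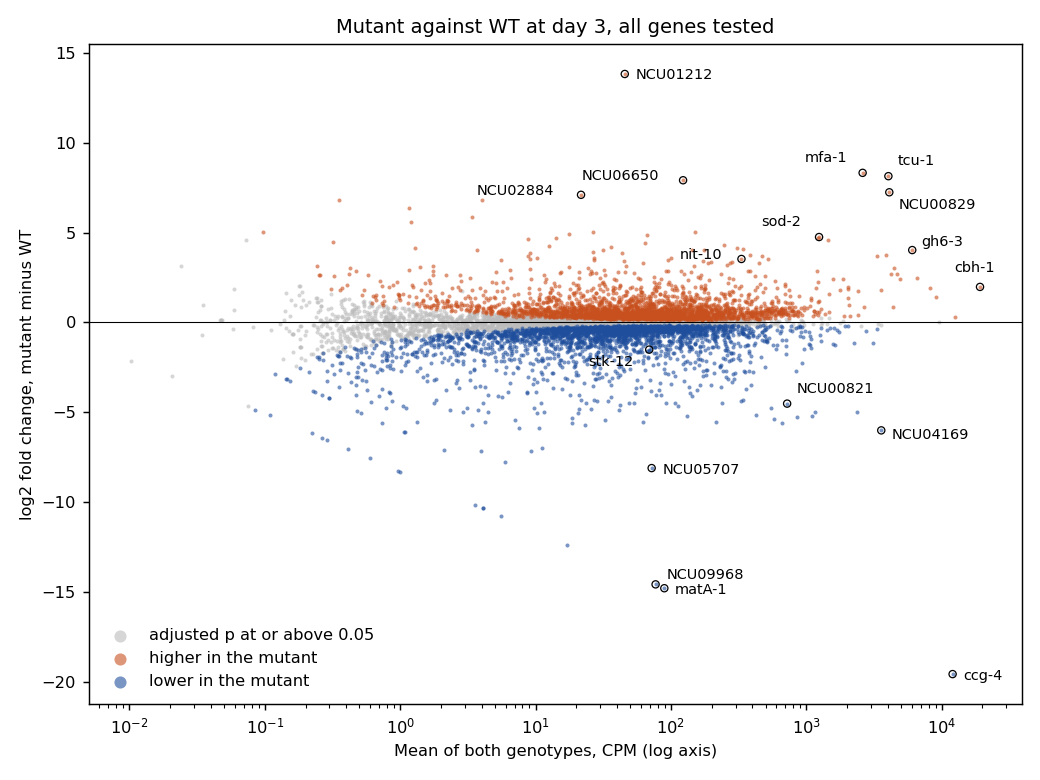
Log2 fold change, mutant minus WT, against the mean level of both strains in CPM (log axis), 1 point per gene tested at day 3, coloured by the edgeR call, with named genes circled. tcu-1 and NCU00829 stand far above the other abundant genes and ccg-4 far below; the fitted values of genes with 0 reads in a strain (NCU01212, matA-1, NCU09968) depend on the prior count and are no measured folds.

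The transcripts that took most reads changed places. In WT the mating pheromone gene ccg-4 (25498 and 22647 CPM) was followed by cdt-2, a cellodextrin transporter (11591 and 11017 CPM), the translation factor gene tef-1, the cellobiohydrolase gene cbh-1 and NCU04169, a gene of unknown function (7398 and 6690 CPM). In the mutant cbh-1 came first (27904 and 33267 CPM), followed by cdt-2 (13447 and 14376 CPM), the thiazole synthesis gene NCU06110 and the exoglucanase genes gh6-2 and gh6-3. The level of tef-1 differed by 0.01 on the log2 scale (adjusted p = 0.893), which turned to -0.21 with library totals alone. cdt-2 passed at 0.30 ± 0.115 (adjusted p = 0.0335), a call that ended in 6 of the alternatives tried, with adjusted p between 0.0514 and 0.529 there. The genes that the authors marked as cellulases held 3.05 and 2.89% of all counts in WT and 10.02 and 11.2% in the mutant, and those marked as hemicellulases 0.383 and 0.370% against 2.45 and 2.73%.

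Enzymes that carry a cellulose-binding module moved together. Of 18 tested genes with a module of family CBM1, 17 were higher in the mutant and 0 lower. That was 94.4% higher, against 29.4% of all genes higher and 30.0% lower. The median log2 fold change of the 18 was 2.32, against -0.02 for all genes. All 17 were at least 2-fold higher, as were 593 of 8983 genes overall. The direction of this list was already known when it was drawn up, so the count describes it and does not test it. Their share of counts was 2.51 and 2.36% in WT and 8.88 and 10.03% in the mutant. gh11-2, a xylanase, rose from 1018 and 933 CPM to 7127 and 8809 CPM, and the acetylxylan esterase gene ce5-2 from 304 and 274 CPM to 1897 and 2281 CPM. Both genes were high in both mutant libraries and low in both WT libraries.

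Esterases and pectate lyases, which act on the side chains of xylan and on pectin, included large differences in both directions. fea-1 encodes a feruloyl esterase, which frees ferulic acid from xylan, and stood at 91.8 and 90.6 CPM in WT and at 2031 and 2679 CPM in the mutant (4.69 ± 0.182, adjusted p = 1.56e-12). ce3-2, of carbohydrate esterase family CE3, rose from 4.37 and 4.36 CPM to 112 and 145 CPM (4.88 ± 0.185), whereas ce3-1 of the same family fell from 257 and 242 CPM to 19.9 and 21.8 CPM (-3.58 ± 0.11). The acetylxylan esterase gene ce5-3 rose by 3.68 ± 0.146 on the log2 scale and the pectate lyase genes ply-1 and ply-2 by 4.24 ± 0.177 and 4.05 ± 0.175. gh6-1, a low-level member of the cellobiohydrolase family GH6, went from 0.948 and 1.31 CPM to 30.1 and 37.7 CPM (4.91 ± 0.261). In all 7 of these genes the libraries of the strains lay apart, and only ce3-1 was lower in the mutant. Of 9 pectin enzymes in the list, 7 were higher and 1 lower (77.8% and 11.1%, against 29.4% and 30.0% of all genes; median 2.04), and day 3 had been chosen as the time when enzyme transcripts are higher in the mutant. The lower one was gh28-2, an exopolygalacturonase (-0.32 ± 0.101), a call that ended without WT replicate 1 (adjusted p = 0.0998) and without mutant replicate 2 (adjusted p = 0.0905).

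Lytic polysaccharide monooxygenases cut cellulose with a copper ion in the active site, and cellobiose dehydrogenase supplies them with electrons. Of 16 such genes, 13 were higher in the mutant and 1 lower (81.2% and 6.25%, against 29.4% and 30.0% of all genes; median 2.43), a direction that, like that of the other wall enzymes here, was known when day 3 was chosen. gh61-12 rose from 24.5 and 22.3 CPM to 462 and 473 CPM (4.32 ± 0.0957) and gh61-9 from 79.0 and 84.7 CPM to 810 and 819 CPM (3.31 ± 0.0832). The abundant members gh61-5 and NCU07898 stood at 7394 and 9181 CPM and at 10258 and 12000 CPM in the mutant, against 1650 and 1460 CPM and 2103 and 1961 CPM in WT. The gene that fell was NCU07974 (57.3 to 33.7 CPM on average; -0.77 ± 0.0802). Of 10 cellulases 9 were higher and 1 lower (median 1.95), and of 34 hemicellulases 25 were higher and 2 lower (median 1.32). Beta-glucosidases were higher in 4 of 7 cases and lower in 1 (median 0.39). The lower cellulase, gh7-3, had 92 reads in WT and 3 in the mutant, and its call ended in DESeq2 (Wald test, adjusted p = 0.51).

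Among genes with 1000 CPM or more in either strain, 2 genes of copper and iron uptake had the largest rises after the pheromone gene mfa-1. tcu-1 encodes a high-affinity copper transporter whose promoter is used in N. crassa as a switch that copper represses. It stood at 27.2 and 29.8 CPM in WT and at 7524 and 8569 CPM in the mutant (8.14 ± 0.244, adjusted p = 9.4e-14). Its neighbour on the chromosome, NCU00829, a ferric reductase gene, stood at 55.1 and 52.3 CPM in WT and at 7806 and 8490 CPM in the mutant (7.24 ± 0.223, adjusted p = 1.21e-13). The WT libraries were low for both genes and the mutant libraries high, with nothing in between. Together they held 0.00960 and 0.00985% of WT counts and 1.58 and 1.69% of mutant counts. Per length of transcript, tcu-1 reached 4419 and 4836 RPKM (reads scaled to transcript length and library size) in the mutant, beside 9855 and 11291 RPKM for cbh-1 in the same libraries.

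Most other genes of the list rose by less. Of all 12 genes, 9 were higher and 1 lower (median 1.83), where 29.4% of all genes were higher, and 8 of the 9 at least 2-fold. tcu-3, a second copper transporter, rose from 51.9 and 49.8 CPM to 520 and 515 CPM (3.35 ± 0.0889). On the iron side, the iron permease gene trm-51 rose from 15.8 and 17.01 CPM to 57.4 and 59.1 CPM (1.83 ± 0.124) and its neighbour trm-52, annotated as the laccase-type oxidase Lcc3, by 0.80 ± 0.073. Siderophores are secreted iron carriers. NCU06062, annotated in siderophore synthesis, rose from 16.4 and 13.9 CPM to 181 and 185 CPM (3.59 ± 0.0992), with its neighbours NCU06061, an oxidoreductase, and NCU06063, an acyl-CoA ligase, at 3.32 ± 0.106 and 3.29 ± 0.148. The siderophore transporter genes NCU06132 and NCU07564 rose by 2.79 ± 0.0897 and 1.84 ± 0.0719. The ferric reductase gene NCU00023 rose by 1.23 ± 0.0674. sre, annotated as a regulator of siderophore genes, was the 1 gene that fell (68.4 and 70.3 CPM to 48.8 and 53.5 CPM, -0.44 ± 0.0786). Of the other 2 genes, the siderophore synthesis gene NCU08167 gave 0.19 (adjusted p = 0.089) and NCU02879, a zinc and iron transporter gene, held under 1 CPM in all 4 libraries. Metal contents of the media or the cells were not measured.

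**Figure D2:**
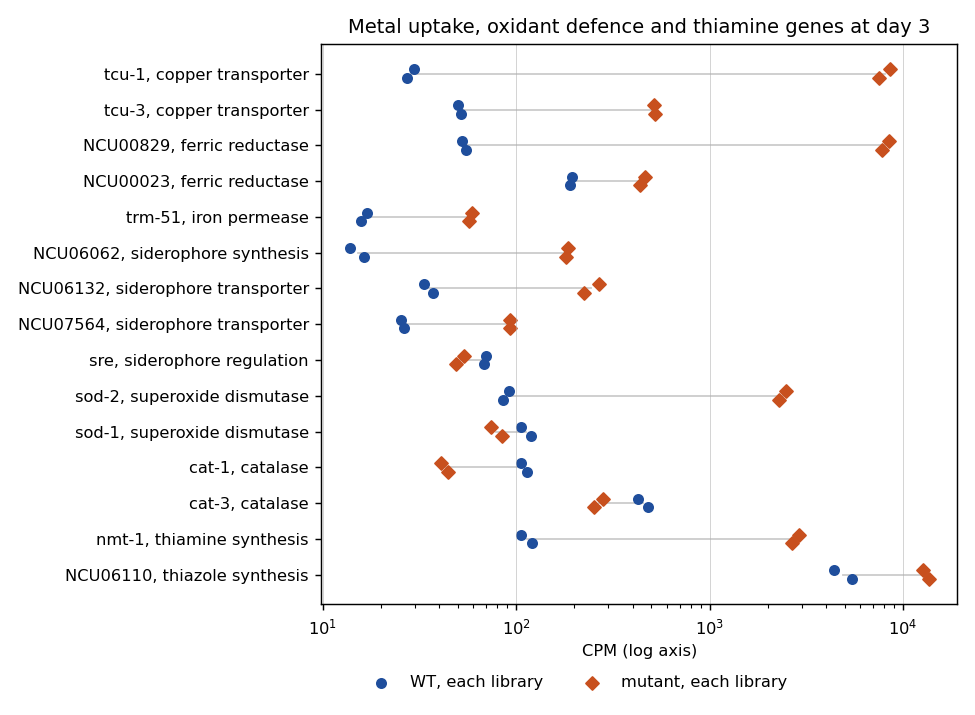
Level of each gene in each day 3 library, in CPM on a log axis, WT as circles and mutant as diamonds, with a grey line between the means. tcu-1, NCU00829, sod-2 and nmt-1 have the widest gaps, whereas sre, sod-1, cat-1 and cat-3 lie on the other side, lower in the mutant.

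Genes of oxidant defence moved in both directions. sod-2, a superoxide dismutase gene, stood at 85.3 and 92.3 CPM in WT and at 2292 and 2497 CPM in the mutant (4.75 ± 0.152, adjusted p = 1.98e-13). Its neighbours moved with it: NCU01214 rose from 5.52 and 5.58 CPM to 80.8 and 81.2 CPM (3.87 ± 0.144), and NCU01212, of unknown function, had 0 reads in both WT libraries and 81.7 and 101 CPM in the mutant, at least 690-fold higher against 3 reads per library. sod-1, the copper and zinc superoxide dismutase gene, fell from 120 and 106 CPM to 84.7 and 73.8 CPM (-0.51 ± 0.0965), and the catalase genes cat-1 and cat-3 did likewise (-1.37 ± 0.0876 and -0.76 ± 0.1). Over the list of 9 genes, 5 were higher and 3 lower (55.6% and 33.3%, against 29.4% and 30.0% of all genes; median 0.31).

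A pair of thiamine synthesis genes, named for their levels and not from a list, also rose. nmt-1, named for a gene that thiamine represses in fission yeast and encoding the enzyme for the pyrimidine moiety of the vitamin, stood at 121 and 107 CPM in WT and at 2656 and 2912 CPM in the mutant (4.61 ± 0.114, adjusted p = 1.03e-14). NCU06110, for the thiazole moiety, was already abundant in WT (5436 and 4408 CPM) and reached 13553 and 12730 CPM in the mutant (1.42 ± 0.102). Both genes separated the strains without overlap.

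Nitrogen assimilation genes rose along the whole path from nitrate to glutamine. Vogel's salts supply ammonium and nitrate, and N. crassa takes up nitrate through NIT-10 and reduces it with NIT-3 and NIT-6. The transporter gene nit-10 stood at 54.0 and 51.6 CPM in WT and at 608 and 613 CPM in the mutant (3.53 ± 0.0981, adjusted p = 3.71e-14). nit-3, nitrate reductase, rose from 34.6 and 37.0 CPM to 383 and 339 CPM (3.34 ± 0.128), and nit-6, nitrite reductase, from 599 and 583 CPM to 3172 and 3119 CPM (2.41 ± 0.0891). None of the 3 genes had overlapping libraries. The ammonium transporter gene tam-1 rose by 2.33 ± 0.105, am, the glutamate dehydrogenase that fixes ammonium, by 1.94 ± 0.142, glutamine synthetase gln-1 by 1.22 ± 0.0971 and glutamate synthase en(am)-2 by 1.17 ± 0.0673. Outside the list, NCU09909, annotated as a urea transporter, went from 5.11 and 6.37 CPM to 129 and 118 CPM (4.43 ± 0.154). In the list of 20 genes, 13 were higher and 2 lower, where 29.4% of all genes were higher and 30.0% lower (median 0.79), and with library totals alone 12 were higher and 4 lower. The 2 that fell were aln-1, allantoinase of the purine route (-1.10 ± 0.113), and nit-15 (-0.69 ± 0.135). Of the regulators, nit-2 stood at 0.02 (adjusted p = 0.833) and nit-4 at -0.01 (adjusted p = 0.954).

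Amino acid synthesis followed with smaller steps. Of 69 genes, 55 were higher in the mutant and 4 lower (79.7% and 5.80%, against 29.4% and 30.0% of all genes, median 0.74). At least 2-fold rises numbered 24, against 593 of 8983 genes overall. With library totals alone 46 were higher and 10 lower. The arginine genes arg-5 and arg-10 rose from 12.8 and 11.4 CPM to 58.2 and 69.5 CPM (2.39 ± 0.104) and from 40.2 and 36.7 CPM to 158 and 166 CPM (2.08 ± 0.0886). leu-1 of leucine synthesis rose by 2.17 ± 0.0905, and cys-5, which reduces activated sulfate on the way to cysteine, by 1.88 ± 0.15. The genes that fell most were cys-16 and met-2, which exchange sulfur between cysteine and methionine (-0.73 ± 0.206 and -0.66 ± 0.0715). The call of cys-16 ended without WT replicate 1 (adjusted p = 0.0666) and without mutant replicate 1 (adjusted p = 0.118), and in each case 2 genes of the list were lower. cpc-1, the transcription factor of cross-pathway control over these genes, rose from 1208 and 1179 CPM to 1855 and 1677 CPM (0.57 ± 0.0953, adjusted p = 8.24e-05). Aminoacyl-tRNA synthetases were higher in 21 of 37 cases and lower in 4 (56.8% and 10.8%, median 0.52), or 20 and 10 with library totals alone. The glycyl-tRNA synthetase NCU00405 stood at 1.33 ± 0.0682. Of 26 amino acid and peptide transporters 9 were higher and 13 lower (34.6 and 50%, against 29.4% and 30.0% of all genes; median -0.12), or 5 and 14 with library totals alone. The permease gene aap-22 rose by 2.06 ± 0.131, and the oligopeptide transporter gene NCU10763 fell by 2.08 ± 0.0807.

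**Figure D3:**
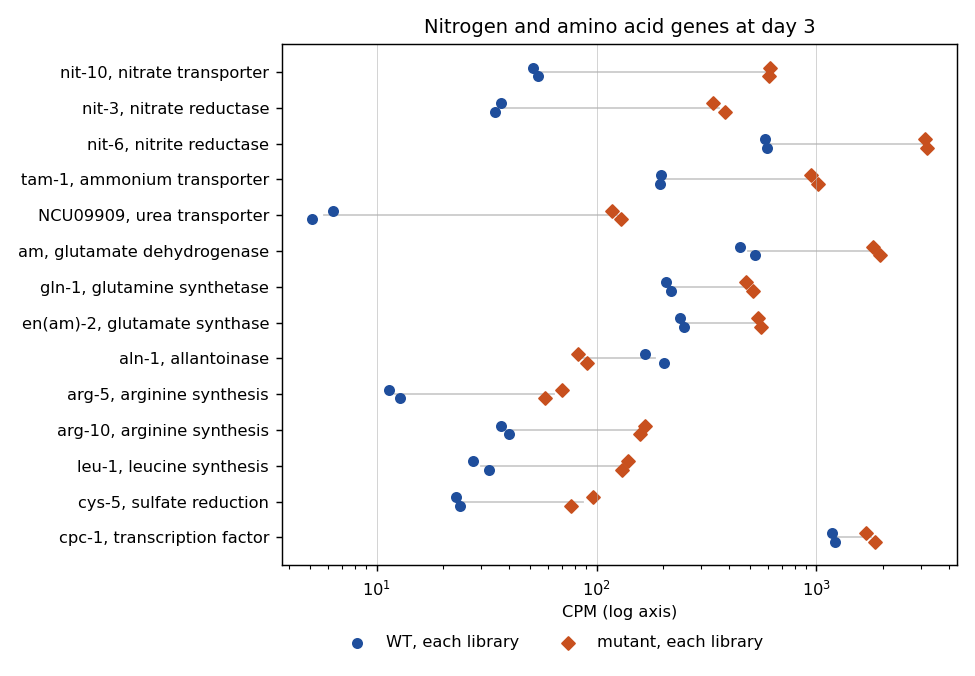
Level of nitrogen and amino acid genes in each day 3 library, in CPM on a log axis, WT as circles and mutant as diamonds, with a grey line between the means. The mutant libraries lie to the right of the WT libraries for all genes shown but aln-1, and the gap is widest for NCU09909, nit-10 and nit-3.

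Central carbon and lipid lists differed among themselves, where 29.4% of all genes were higher and 30.0% lower. In the tricarboxylic acid cycle 12 of 17 genes were higher and 1 lower (median 0.41), or 8 and 3 with library totals alone, led by tca-4, an isocitrate dehydrogenase subunit (130 and 129 CPM to 322 and 328 CPM, 1.33 ± 0.073). In ergosterol synthesis 10 of 13 were higher and 1 lower (median 0.55), or 9 and 3 with library totals alone, with the C-5 sterol desaturase gene erg-10 at 1.69 ± 0.0965 and mevalonate kinase, erg-12, at -0.49 ± 0.077. Genes of fatty acid oxidation and the peroxisome were higher in 19 of 47 cases and lower in 16 (median 0.06), or 15 and 22 with library totals alone. Of 6 fatty acid synthesis genes 4 were higher and 1, NCU09497, lower (-0.83), or 4 and 2 with library totals alone. Both fatty acid synthase subunit genes rose, cel-1 by 0.97 ± 0.0744 and cel-2 by 1.26 ± 0.0923, and the desaturase genes ods and NCU05259 by 1.498 ± 0.0771 and 2.35 ± 0.0997. Of 5 pentose catabolism genes 4 were higher and 0 lower (median 0.49), or 3 and 1 with library totals alone. Xylose reductase, xr, stood at 1.00 ± 0.0808. The call of NCU09041, another of the 4, ended with library totals alone (0.17, edgeR adjusted p = 0.283). Vacuolar ATPase subunits were higher in 9 of 13 cases and lower in 0 (median 0.24), but with library totals alone 3 were higher and 2 lower.

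Some of the steepest rises fell in genes of poorly known role. NCU06650, annotated as a secretory phospholipase A2, which releases fatty acids from membrane lipids, went from 1.07 and 0.937 CPM to 229 and 261 CPM (7.91 ± 0.176, adjusted p = 3.37e-15). NCU02884, of unknown function, went from 0.412 and 0.187 CPM to 42.2 and 43.9 CPM (7.10 ± 0.36), and NCU07353 from 8.49 and 9.04 CPM to 293 and 287 CPM (5.05 ± 0.107). abc-2, an ABC transporter gene of the drug efflux type, rose by 5.01 ± 0.124, and its neighbour NCU08440 by 3.90 ± 0.117. The level in WT was under 2 CPM for NCU06650 and NCU02884, so their ratios rest on few WT reads.

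Sugar transporters were among the genes more often lower than higher in the mutant. Of 38 genes that the authors or the symbols mark as such, 10 were higher in the mutant and 19 lower, where 30.0% of all genes were lower (median -0.44). NCU00821, a sugar transporter gene, stood at 1406 and 1359 CPM in WT and at 56.4 and 63.9 CPM in the mutant (-4.52 ± 0.131, adjusted p = 6.06e-14). NCU06358 and NCU05627, annotated as high-affinity glucose transporters, fell from 526 and 520 CPM to 54.9 and 62.4 CPM (-3.16 ± 0.098) and from 61.4 and 55.4 CPM to 7.38 and 8.56 CPM (-2.87 ± 0.138). The cellodextrin transporter gene cdt-1 rose from 1926 and 1861 CPM to 3306 and 3563 CPM (0.86 ± 0.109), and NCU11342, a hexose transporter gene, by 1.90 ± 0.113. NCU05853, the second most abundant of the list, gave -0.09 (adjusted p = 0.5), which passed with library totals alone (-0.32, adjusted p = 0.00808).

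A run of 4 adjacent genes was abundant in WT and low in the mutant. NCU04169, of unknown function, stood at 7398 and 6690 CPM in WT and at 113 and 105 CPM in the mutant (-6.01 ± 0.195, adjusted p = 2.26e-13). gh16-2 beside it, of the glucanase family GH16, fell from 2289 and 1971 CPM to 53.8 and 59.5 CPM (-5.23 ± 0.173), NCU04167 from 1677 and 1640 CPM to 43.4 and 42.0 CPM (-5.28 ± 0.16) and NCU04170 from 653 and 652 CPM to 32.3 and 32.2 CPM (-4.34 ± 0.126). All 4 genes separated the strains by more than 10-fold. NCU09650, of unknown function and among the 10 most abundant genes in WT, fell from 4421 and 4779 CPM to 132 and 162 CPM (-4.97 ± 0.192). NCU00290, an ABC transporter gene (1152 and 1112 CPM to 26.6 and 28.7 CPM), NCU09568, of unknown function (1339 and 1252 CPM to 30.8 and 22.9 CPM), and NCU05980, a carboxypeptidase gene (436 and 414 CPM to 11.9 and 6.39 CPM), had log2 fold changes of -5.35, -5.59 and -5.54. NCU09568 also had a neighbour that fell, NCU09569 (-4.48 ± 0.0954). NCU09968, of unknown function, had 0 reads in the mutant and 151 and 157 CPM in WT, at least 1052-fold lower, and NCU05707 fell from 138 and 149 CPM to 0.693 and 0.336 CPM (-8.11 ± 0.265).

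**Figure D4:**
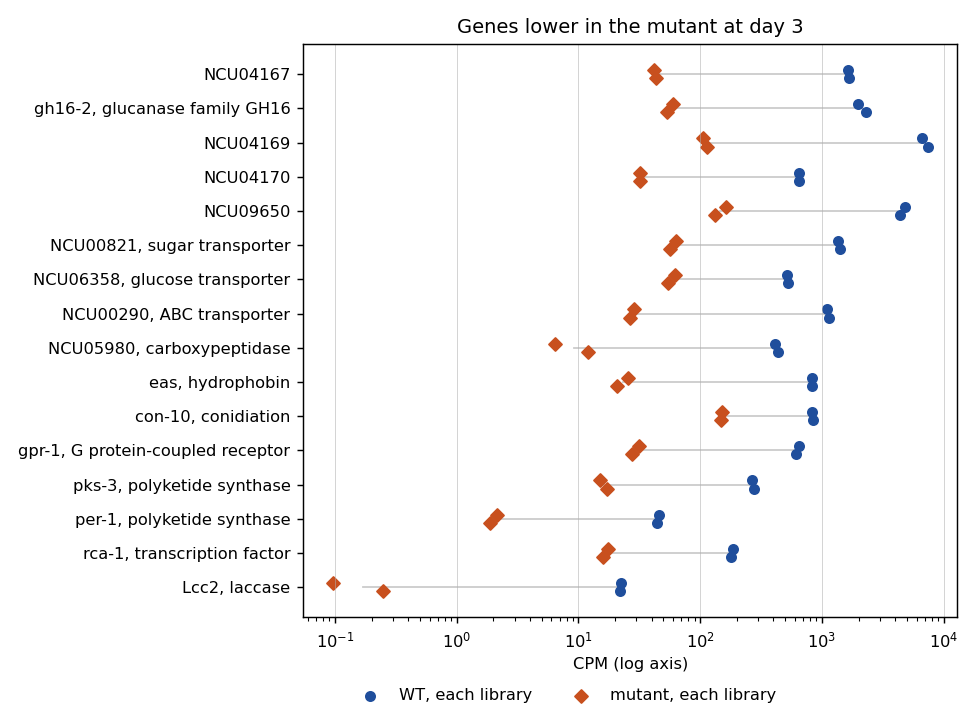
Level of genes lower in the mutant in each day 3 library, in CPM on a log axis, WT as circles and mutant as diamonds, with a grey line between the means. For all 16 genes shown both mutant libraries lie to the left of both WT libraries, and NCU04169 spans 7398 to 105 CPM.

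Genes of spore formation and aerial growth were lower in the mutant. Of 20 conidiation genes 13 were lower and 2 higher, where 30.0% of all genes were lower and 29.4% higher (median -0.41). eas, the hydrophobin that coats conidia, stood at 825 and 830 CPM in WT and at 20.9 and 25.4 CPM in the mutant (-5.16 ± 0.283, adjusted p = 1.24e-10), and con-10 at 846 and 835 CPM against 148 and 151 CPM (-2.49 ± 0.188). ccg-9, a trehalose synthase gene linked to conidiation, went the other way (0.90 ± 0.101). The summed level of 8 markers of conidia and aerial hyphae was 3919 and 4056 CPM in WT and 2201 and 2325 CPM in the mutant, with 6 lower and 1 higher, and con-8 did not pass (-0.28). None of the 8 was at 0 in any of the 4 libraries. In such whole-mycelium RNA, fewer cells of a type and less RNA per cell cannot be told apart, and what part conidia had in the other falls was not tested. Of the mycelial markers, the Woronin body gene hex-1 fell by 1.15 on the log2 scale, act rose by 0.46, and so and chs-1 did not pass (0.03 and -0.09). The summed level of these 4 markers was also lower in the mutant, at 6129 and 5833 CPM in WT and 4024 and 3970 CPM in the mutant. All 4 markers were read in all 4 libraries.

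Genes tied to sexual tissue and its pigments differed as well. Of 6 perithecial markers, app (21.4 and 23.4 CPM to 0.990 and 0.433 CPM), per-1, fmf-1 and 2 others were lower, and asd-1, which encodes a rhamnogalacturonase and is also counted among the pectin enzymes, was higher (56.1 and 47.1 CPM to 435 and 500 CPM, 3.18 ± 0.128). The summed level of the 6 markers was 399 and 380 CPM in WT and 580 and 645 CPM in the mutant (higher in the mutant, although 5 of the 6 members were lower). Polyketide synthases and nonribosomal peptide synthases build pigments and other secondary metabolites, and 7 of 8 such genes were lower with 0 higher (87.5%, against 30.0% of all genes; median -1.25). per-1, a polyketide synthase of perithecial pigment, fell from 44.1 and 46.0 CPM to 1.88 and 2.16 CPM (-4.47 ± 0.162) and pks-3 from 279 and 265 CPM to 17.2 and 14.996 CPM (-4.08 ± 0.0875). Laccases, copper oxidases that act on phenols, were lower in 4 of 8 cases and higher in 2 (median -0.20), where 30.0% and 29.4% of all genes were. Lcc2 stood at 22.0 and 22.4 CPM in WT and at 0.248 and 0.0961 CPM in the mutant (-6.97 ± 0.346), whereas the laccase gene NCU09023 rose from 5.03 and 4.83 CPM to 19.6 and 25.2 CPM (2.18 ± 0.16). The strains of this comparison differ in mating type transcripts, and what part that had in these genes cannot be told apart from the kinase.

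Signalling genes moved in both directions. Of 17 genes for pheromones, their receptors and G protein subunits, 5 were higher and 7 lower (29.4% and 41.2%, against 29.4% and 30.0% of all genes), or 3 and 11 with library totals alone. gpr-1, a G protein-coupled receptor gene linked to sexual development, stood at 610 and 649 CPM in WT and at 27.7 and 31.8 CPM in the mutant (-4.40 ± 0.147, adjusted p = 2.76e-13), while gpr-3, a receptor gene of the same class, rose by 1.22 ± 0.109. The G protein alpha subunit gene gna-1 fell from 209 and 226 CPM to 139 and 146 CPM (-0.61 ± 0.0689). The pheromone receptor gene pre-2 rose from 1.15 and 0.937 CPM to 27.9 and 26.9 CPM (4.69 ± 0.149) and pre-1 fell by 1.48 ± 0.213. Of 38 serine/threonine protein kinase genes in the list, 6 were higher and 9 lower (median -0.05), without counting stk-12 or other stk genes outside the list. Without mutant replicate 1 the lower genes were 4, and with library totals alone 1 kinase gene was higher and 24 lower. Genes of MAP kinase cascades were higher in 6 of 24 cases and lower in 6 (median 0.01), or 2 and 16 with library totals alone, so neither list had a direction apart from the scaling. The kinase list is not complete: stk-35, which is outside it, had 97 reads in WT and 3 in the mutant. How many other kinase genes outside the list rose or fell was not counted.

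Transcription factors were more often lower than higher. Of 175 genes, 69 were lower (39.4%, against 30.0% of all genes) and 27 higher (15.4%, against 29.4%), with a median of -0.13. With library totals alone 110 were lower and 18 higher. rca-1, a Myb-type factor, fell from 180 and 187 CPM to 15.99 and 17.6 CPM (-3.45 ± 0.0975, adjusted p = 4.74e-14), and NCU08634 and NCU10006 fell as well (-3.22 ± 0.175 and -2.84 ± 0.148). The largest rise was that of clr-2, the activator of cellulase genes (245 and 234 CPM to 581 and 673 CPM, 1.39 ± 0.146). clr-1 (0.53 ± 0.0736), vib-1 (0.75 ± 0.0749), which acts with them in carbon sensing, and NCU01856, annotated as the hac1 activator of the unfolded protein response (0.78 ± 0.0639), rose by less. For xlr-1, the xylanase activator, the value was 0.10 (adjusted p = 0.27). The carbon repressor cre-1 had 0.38 (adjusted p = 0.082), which passed in a fit of the 4 day 3 libraries alone (adjusted p = 1.61e-05).

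Lists of nuclear and wall genes held more lower than higher members, where 30.0% of all genes were lower and 29.4% higher. Genes of protein synthesis stood on the other side, with 70 of 74 cytosolic ribosomal protein genes higher and 3 lower (median 0.59). Translation factors were higher in 22 of 37 cases and lower in 2, or 13 and 9 with library totals alone. Of 20 DNA replication genes 12 were lower and 2 higher (median -0.29), with pole-3, a DNA polymerase epsilon subunit, at -1.01 ± 0.0939. Of 8 histone genes 6 were lower (2 without mutant replicate 1) and 1, the linker histone hH1, higher (0.27 ± 0.0792), though not with library totals alone (0.04, adjusted p = 0.63). RNA silencing and DNA methylation genes were lower in 9 of 15 cases and higher in 1 (median -0.32), or 14 and 0 with library totals alone. qde-1, the RNA-dependent RNA polymerase of quelling, fell from 33.8 and 34.8 CPM to 11.8 and 12.5 CPM (-1.49 ± 0.103), and qip, a partner of the Argonaute protein QDE-2, was lower by a smaller step (-0.72 ± 0.0941). The 1 higher member, dim-1, carries a product name of a splicing factor, and did not pass with library totals alone (adjusted p = 0.28). Of 19 chitin and glucan synthesis genes 12 were lower (7 without mutant replicate 1) and 0 higher (median -0.28), with the glucanosyltransferase genes gel-4 and gh16-7 at -2.03 ± 0.133 and -1.38 ± 0.0711. Of 58 wall-degrading glucanases, chitinases and mannanases, 16 were higher and 22 lower (27.6% and 37.9%, near the shares of all genes), or 9 and 26 with library totals alone, with gh16-6 at 1.97 ± 0.109 and gh55-4 at -2.96 ± 0.108.

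**Figure D5:**
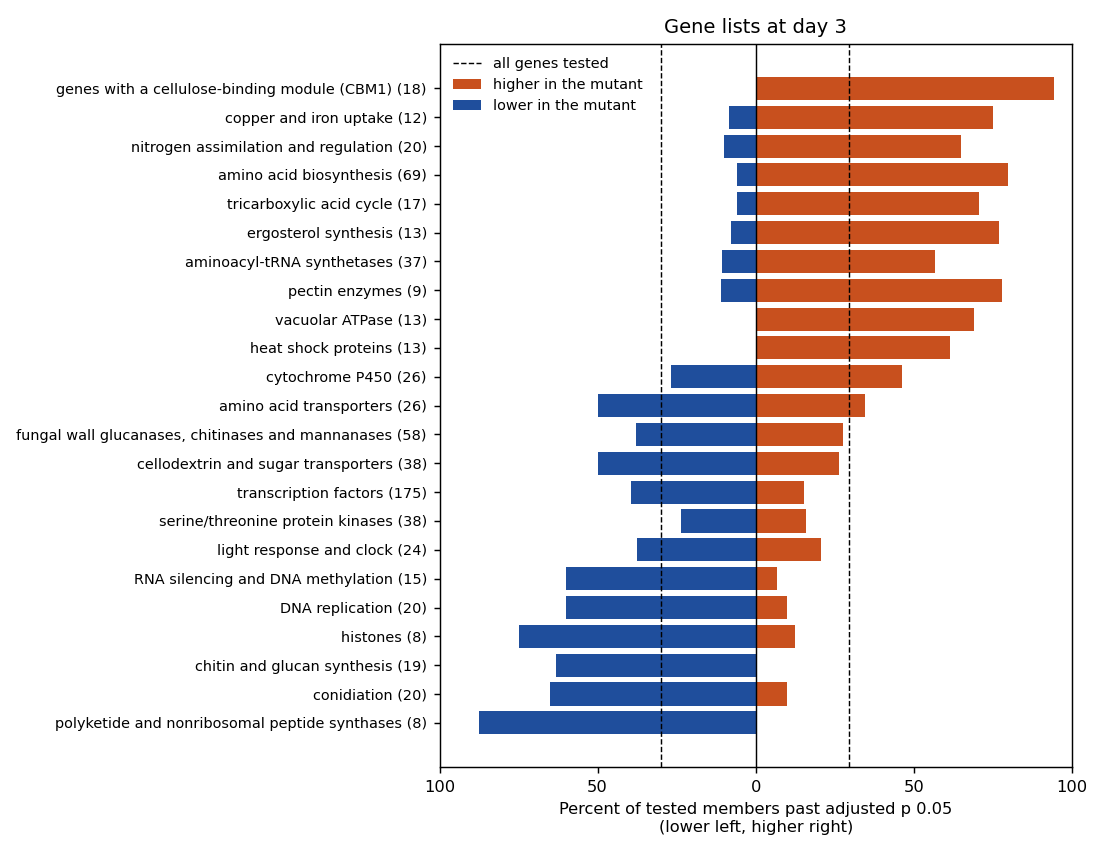
Share of tested members past an edgeR adjusted p of 0.05 for a selection of the gene lists, lower in the mutant to the left and higher to the right, with the number tested in brackets; dashed lines mark the shares over all genes tested, 30.0% and 29.4%. Of the lists drawn, enzymes with a cellulose-binding module reach furthest to the right, followed by amino acid synthesis, pectin enzymes, ergosterol synthesis and metal uptake, and polyketide synthases, histones and conidiation genes reach furthest to the left. Lists not drawn reached further right, namely ER folding (100% of 5 genes higher) and cytosolic ribosomal proteins (94.6% of 74).

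Large changes often came in adjacent genes. A neighbour here is the nearest gene tested on either side, by position in the NC12 annotation, with genes removed by the filter skipped. Of the 69 genes at least 8-fold higher, 44 (63.8%) had a neighbour at least 2-fold higher, where 12.5% of all genes tested had one. For the 178 genes at least 8-fold lower the count was 108 (60.7%, against 17.7% of all genes). The pairs tcu-1 with NCU00829 and abc-2 with NCU08440, the sod-2 trio and the run around NCU04169 are examples given above. fea-1, by contrast, lay between NCU09490 (-1.84) and NCU09492 (-0.36), both lower in the mutant. Without strand information in the counting, overlapping neighbours could share reads, so neighbour counts are not independent.

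The day 3 difference was also set beside those of the other times. In the same fit it was tested against the mean of the differences at 12 h, day 1 and day 5, and 4801 of 8983 genes passed (53.4%), 2306 shifted up at day 3 and 2495 shifted down. tcu-1 had log2 fold changes of 0.21, 0.28 and 1.73 at the other 3 times in that order, so its day 3 value lay 7.40 ± 0.253 above their mean (adjusted p = 1.51e-12). NCU00829 lay 6.53 ± 0.23 above, and sod-2, at -0.10, -0.22 and 1.14, 4.48 ± 0.164 above. Nitrate genes were higher in the mutant at day 3 and lower at day 5: nit-10 stood at -1.02 (adjusted p = 1.26e-07) and nit-3 at -0.99 (5.69e-06) at day 5. fea-1 was lower in the mutant at 12 h, day 1 and day 5 (-0.93, -0.65 and -2.17) and higher at day 3. Day 3 had been chosen as the time when enzyme transcripts are higher in the mutant, so this shift is described and not tested. NCU00821 was higher in the mutant at 12 h and day 1 (0.66 and 0.94) before it was lower at day 3 and day 5 (-4.52 and -1.86). pks-3 was lower in the mutant at day 3 (-4.08) and higher at day 5 (0.62, adjusted p = 0.000191). stk-12 itself had nearly the same difference at all times and did not pass this test (0.03, adjusted p = 0.82).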

How the data were processed

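The authors deposited read counts per gene and RPKM values for 9730 genes in 16 libraries; TopHat2 (2.0.8b) and HTSeq (0.5.4p3) are named in the submitters' processing notes. Genome build and strand are not given in the sources used here. The deposited RPKM values equalled count over length and library total for 146267 of 146267 values above 0 (tolerance 0.001) and served only for levels per length. Entries naming no gene were left out; they held 6.86% of the reads of WT replicate 2 at day 3.

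Counts were filtered with filterByExpr (747 genes removed), scaled by TMM and tested with edgeR (4.0.16; R 4.3.3), 1 mean per group over all 16 libraries, 8 residual degrees of freedom, Benjamini-Hochberg over all 8983 genes, threshold 0.05. SE is the absolute log2 fold change over the square root of F. The code was tested on simulated data. Alternatives included DESeq2 (1.42.0). Lists came from symbols, products and deposited CAZy families. Genes were named by role, by the 15 largest rises and falls at 10 CPM or more, the 10 most abundant per strain, the extremes of each list and the 10 largest differences from other times; further genes were chosen after their values were seen. Members and lists were chosen with earlier results of these data known. Figures and summaries used Python (3.11.15).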

Additional observations from a re-analysis of the deposited data

Results flagged for a closer look

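The day 3 difference between the strains departed from the mean difference at the other 3 times for 4801 genes (edgeR contrast, adjusted p under 0.05). The 10 largest departures among genes with at least 10 CPM were, on the log2 scale, 13.86 for NCU01212, -8.65 for NCU08085, 7.62 for NCU02884, 7.40 for tcu-1, 6.53 for NCU00829, -6.02 for Lcc2, 5.94 for fea-1, -5.85 for NCU16321, 5.68 for NCU06650 and 5.05 for gh6-1. The highest adjusted p among them was 0.000874, for NCU08085. Because day 3 was chosen as the time when enzyme transcripts are higher in the mutant, the departures of the enzyme genes fea-1 and gh6-1 are no test of such a rise. The values of NCU01212, with 0 reads in WT at day 3, and of NCU08085, with 2 reads in the mutant at day 3, depend on the prior count. NCU08085, of unknown function, was higher in the mutant at 12 h and day 1 (4.66 and 4.35) and lower at day 5 (-6.34).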

How the results depend on the processing

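Counting only genes at least 2-fold apart left 1479 of 5342. With library totals alone 1648 genes were higher and 4249 lower, and 5 named genes changed sign: tef-1 (-0.21), mus-10 (-0.04), dim-8 (-0.16), NCU08920 (-0.21) and cdc47 (-0.2). The count of genes called was 5352 with DESeq2 size factors, 5331 without the filter, 5069 in DESeq2, 5765 with the day 3 libraries alone and 4526 to 4712 with 1 day 3 library left out. Against the other times it was 3991 to 4933 with 1 library left out. Of 380 named genes, 317 kept their call and direction under every alternative tried. Same-numbered WT and mutant libraries did not deviate together (correlation -0.019 over 7007 genes), and with a replicate block 5234 genes passed, 2603 higher and 2631 lower. Depth limits genes with few reads in a strain, such as Lcc2 and NCU02884 here, and intervals cover counting error only.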

Other observations

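Genes for peptidases and for phosphate supply moved in both directions. Of 84 peptidase genes, 32 were higher in the mutant at day 3 and 16 lower (38.1% and 19.0%, against 29.4% and 30.0% of all genes), but with library totals alone 23 were higher and 33 lower. The carboxypeptidase gene NCU06720 had a log2 fold change of 2.80 ± 0.143 and the metalloprotease gene NCU07200 one of 1.56 ± 0.121, against -2.25 ± 0.107 for the acid proteinase gene NCU04205. pho-3, an acid phosphatase gene, rose from 5.57 and 4.97 CPM to 44.2 and 42.8 CPM (3.04 ± 0.133), while the phosphate transporter genes pho-4 and pho-5 fell (-1.37 ± 0.141 and -1.38 ± 0.13).

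Genes listed with the carotenoid pathway also split, with 4 of 7 higher and 2 lower (57.1% and 28.6%, against 29.4% and 30.0% of all genes). al-1 and ylo-1 rose by 0.84 and 0.55, and al-3 did not pass (0.18). The call of al-1 ended with library totals alone (0.61). al-2, phytoene synthase, fell by 0.77 ± 0.21, a call that ended without mutant replicate 1 (-0.68). cao-1 and cut-1, whose place in the pathway was not examined, rose by 1.34 ± 0.11 and 1.37 ± 0.105. Of 24 clock and light genes 5 were higher and 9 lower (20.8% and 37.5%, against 29.4% and 30.0% of all genes), or 5 and 15 with library totals alone, with csp-1, of conidial separation, at -1.22 ± 0.14.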
